A study of Homo sapiens with 18 samples.

Results

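The comparison set all 15 ligand-treated libraries of differentiated SH-SY5Y cells against the 3 water-treated Control libraries, each ligand library being read against the Control that carries the same library code. All 18 libraries of the series took part. Among the 23231 genes tested, 858 lay above their own code's Control in every one of the 15 ligand libraries and 649 lay below it in every one, 1507 in all. These are called the one-sided genes here. The selection looks only at the direction of each difference, so the one-sided counts are a description of the same values that the fit reads and give it no separate support.

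SH-SY5Y is a human neuroblastoma line, here of wild-type genotype. In every group the cells had first been differentiated for 7 days with ATRA (all-trans-retinoic acid) at 10 µM, which turns them towards a neuron-like state, and were then exposed for 15 minutes. Control cells received water. The ligand groups received morphine at 193 nM, metamorphine at 169 nM, TRV130 at 200 nM, β-endorphin at 200 nM or naloxone at 200 nM, with 3 libraries per group. The library names carry 1 of 3 codes whose meaning the labels do not give. They are lettered here as A (6 ligand libraries), B (5) and C (4), with 1 Control in each. TRV130 is the exception to 1 library per code, with 2 in A, 1 in B and none in C. Nothing in the labels ties libraries to separate cultures. The p-values hence describe library-to-library spread, of which an unknown share may be technical.

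Opioid receptors are G protein-coupled receptors of the inhibitory class: agonists lead them to release Gi/o subunits that lower adenylyl cyclase activity, close voltage-gated calcium channels and open inwardly rectifying potassium channels. Morphine, the peptide β-endorphin and the G protein-biased agonist TRV130 (oliceridine) act at the µ receptor, whereas naloxone is an antagonist. A difference shared by all 5 ligands therefore joins agonists and an antagonist in one contrast.

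The libraries held 21211449 to 33123855 counts. The neuronal identity of the cells was plain in every library: DBH, the enzyme that makes noradrenaline, stood at 923 to 2170 CPM (counts scaled by library size and TMM factors to a common total), and all 10 markers set for this line were found at 17.6 CPM or more in each library. The library labelled Control 1, the Control of code A, stood apart. It held 20888 reads in 3647 protein-coding genes whose median count over the libraries was 0, against 276 to 3074 such reads in the other 17. Of the markers of other cell types, 3 sums were low but higher in Control than with ligand in part. The summed epithelial markers (21 genes, all detected) were 15.6 to 50.3 CPM in Control and 13 to 35 CPM with ligand. The immune markers (24 genes, all detected) were 13.3 to 37 and 10.8 to 17.3 CPM. The endothelial and red blood cell markers (13 genes, HBB at 0) were 4.76 to 22.6 and 3.27 to 11.7 CPM. The Schwann cell markers (15 genes, all detected) were 67.6 to 107 CPM in Control and 59.7 to 111 CPM with ligand. The mesenchymal markers (25 genes, POSTN at 0) were not low, at 1040 to 1320 and 856 to 1240 CPM. In each of these marker sums the highest Control value was that of Control 1. The part of these markers in the results was not tested, and in bulk RNA fewer cells of a type and less RNA per cell cannot be told apart.

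Of 23231 genes, edgeR's quasi-likelihood test with the code as covariate called 0 higher (0%) and 6 lower (0.0258%) with any ligand at a Benjamini-Hochberg adjusted p of 0.05. At an unadjusted p of 0.05 it counted 3606 higher (15.5%) and 3773 lower (16.2%). The smallest adjusted p of a higher gene was 0.0685, and 1589 higher and 1787 lower genes had an adjusted p under 0.1. Many genes thus lay close behind the threshold. DESeq2 on the same design called 630 higher and 946 lower, and limma voom with quality weights called 1 and 15. For the 11980 genes of at least 10 CPM, the median half-width of the 95% interval of the log2 fold change was 0.237.

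The one-sided genes made up 3.69% (higher) and 2.79% (lower) of the genes tested. The median log2 fold change was 0.45 over the 858 higher and -0.49 over the 649 lower genes, beside -0.01 over all genes tested. Most one-sided differences were thus small, and 108 higher and 95 lower genes exceeded 2-fold, of which 42 and 87 had a mean under 1 CPM. The filter on low counts matters for the lower side: 29 of the 649 passed it with fewer than 3 ligand libraries above the count minimum, against 0 of the 858. With size factors of the RLE kind in place of TMM, 690 genes lay above and 782 below in all 15 libraries, so the higher share of the one-sided genes went from 56.9% to 46.9%. Within single codes, 8087 genes lay above and 7213 below Control in all libraries of code A, 5719 and 6371 in code B, and 4189 and 4824 in code C.

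Hairpins of imprinted microRNAs on chromosome 14 were among the one-sided higher features, and the sequences of 3 are printed here. Of 304 microRNA genes tested, 9 were one-sided higher and 5 lower, beside 3.69% and 2.79% of all genes tested. As a class they thus did not stand out. MIR433 is 1 of the 10 higher genes with the smallest p. MIR127 and MIR136 lie on the same side and were picked for display after their values were seen. All 3 are encoded on the plus strand inside an exon of RTL1, a retrotransposon-derived gene read from the minus strand. The hairpins, from RefSeq (GRCh38.p14, plus strand), are printed 5′ to 3′ with the mature arms in capitals. They stand at chr14:100881886-100881978, chr14:100882979-100883075 and chr14:100884702-100884783.
MIR433: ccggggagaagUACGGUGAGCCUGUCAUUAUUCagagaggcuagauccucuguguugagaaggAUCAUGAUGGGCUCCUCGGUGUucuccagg
MIR127: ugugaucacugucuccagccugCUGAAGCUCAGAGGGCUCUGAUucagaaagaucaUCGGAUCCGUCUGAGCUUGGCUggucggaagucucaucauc
MIR136: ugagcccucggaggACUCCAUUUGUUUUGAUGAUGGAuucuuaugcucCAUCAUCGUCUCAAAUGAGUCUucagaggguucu

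MIR433 stood at 19.2, 39.8 and 14.7 CPM in Control 1, 2 and 3, and at 17 to 55.4 CPM (median 44.6) with ligand. The ranges overlap, because code C is low throughout, but within each code every ligand library exceeded its Control. The mean difference on the log2 CPM scale was 1.24 in code A, 0.29 in code B and 0.40 in code C. MIR136 differed by 3.51, 0.52 and 1.08 in the same order, and MIR127 by 1.67, 0.28 and 0.75. Without Control 1 the log2 fold change of MIR433 went from 0.62 to 0.34. The exon of RTL1 holds 5 tested hairpins in all, and the other two were not one-sided. MIR432 lay above Control in 14 of 15 libraries, with mean differences of 3.39, 0.35 and 0.51 in codes A, B and C. MIR431 lay above in 10 of 15 and in 2 of 6 of code A, with mean differences of -0.11, 0.11 and 0.37. RTL1 itself, whose exon holds these hairpins, was at 592, 599 and 233 CPM in Control and 244 to 734 CPM (median 624) with ligand, and 13 of 15 libraries exceeded their Control, with a log2 fold change of 0.19 (SE 0.10). The libraries were made without strand information, so reads of RTL1 and of the hairpins' own strand cannot be told apart. Mature microRNAs are too short for such libraries, and these values speak for longer RNA only.

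Among protein-coding genes of at least 10 CPM on average, the 10 one-sided higher genes with the smallest p were SPOCK1, BVES, TNFRSF19, DMXL1, ADGRL2, SEMA3C, ZKSCAN8, LGR5, TXNDC16 and STXBP4. None passed the adjusted threshold in edgeR, their adjusted p running from 0.0729 to 0.0804, and their log2 fold changes ran from 0.35 to 0.59. SPOCK1, which encodes the secreted proteoglycan testican-1, was at 65.8, 71.7 and 58.3 CPM in Control and at 62.8 to 113 CPM (median 91.8) with ligand. The code C ligand libraries held the low values, and all 4 still exceeded the Control of code C. BVES, which encodes a cAMP-binding membrane protein of the Popeye family, was at 20.4, 30.5 and 24.4 CPM in Control and at 23.7 to 41.5 CPM (median 36.3) with ligand. Its 2 lowest ligand values, 23.7 and 26.2 CPM, came from the TRV130 libraries of code A.

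TNFRSF19 encodes TROY, a receptor of the tumour necrosis factor receptor family. It was at 68.1, 86.2 and 81.2 CPM in Control and at 77.6 to 120 CPM (median 98.9) with ligand, and its mean difference was nearly even across codes, at 0.36, 0.40 and 0.28 in codes A, B and C. ADGRL2, the adhesion G protein-coupled receptor latrophilin 2, was at 167, 257 and 243 CPM in Control and at 247 to 364 CPM (median 304) with ligand. For ADGRL2 the differences were uneven, at 0.73, 0.41 and 0.21. DMXL1, a relative of rabconnectin that acts with the proton pump of vesicles, was at 11.6 to 21.3 CPM in Control and at 19.2 to 31.1 CPM (median 25.6) with ligand, with differences of 0.99, 0.42 and 0.25. BVES kept 0.47 as its log2 fold change when Control 1 was left out, and TNFRSF19 kept 0.34, beside 0.53 and 0.35 with it. DMXL1 went from 0.54 to 0.33. CNTN1, the neural cell adhesion protein contactin 1, had the smallest p of any higher gene, with a log2 fold change of 0.74 (SE 0.15) and an adjusted p of 0.0685 in edgeR. Its Control values were 4.78, 6.99 and 6.83 CPM and its ligand values 7.48 to 12.2 CPM (median 10.9), so that here the groups did not overlap even across codes. ITGA6, a laminin-binding integrin subunit, had ligand values of 1.72 to 3.45 CPM beside Control values of 0.812, 1.28 and 1.73 CPM, the lowest ligand value lying just under the highest Control. PTPRR, a tyrosine phosphatase that acts on MAP kinases, was at 4.02, 3.19 and 5.45 CPM in Control and at 4.97 to 8.84 CPM with ligand.

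**Figure D1:**
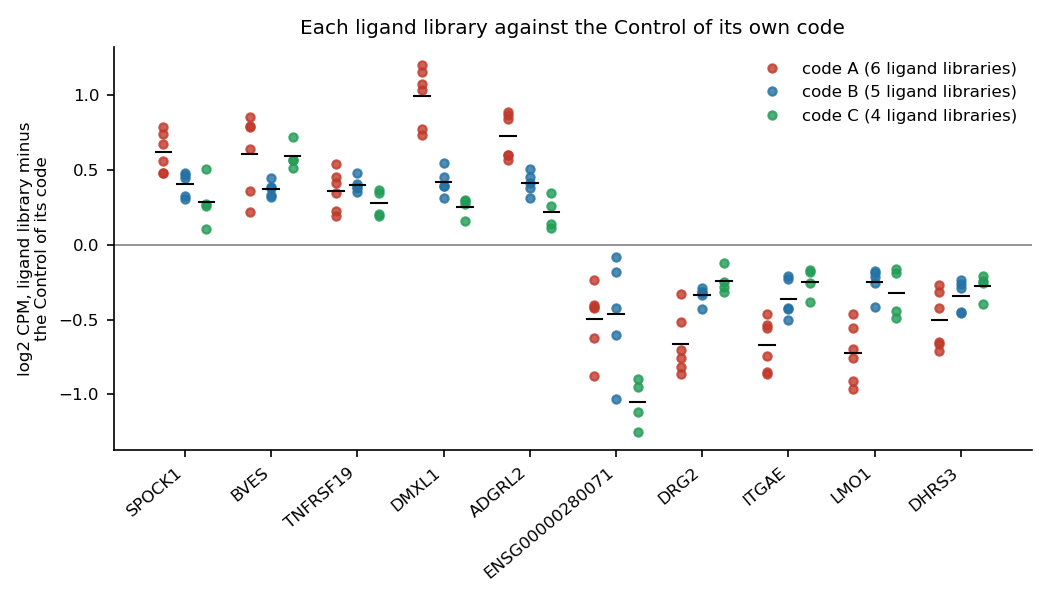
Difference in log2 CPM between each ligand library and the Control of its code (y axis) for 5 higher and 5 lower protein-coding genes of at least 10 CPM (x axis). Points are libraries coloured by code and black bars are means. For DMXL1 the code A mean is 0.99 and the code C mean 0.25, whereas for TNFRSF19 the 3 means lie between 0.28 and 0.40.

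The 10 lower genes chosen by the same rule were ENSG00000280071, DRG2, ITGAE, LMO1, DHRS3, IFI27L1, DNAJC17, ASMTL, CCHCR1 and PIGL, with log2 fold changes of -0.67 to -0.32 and adjusted p of 0.0763 to 0.0804 in edgeR, so that none passed. DRG2, a GTPase of the developmentally regulated GTP-binding family, was at 59.3, 39.9 and 38.3 CPM in Control and at 29.6 to 47.2 CPM (median 32.6) with ligand. The highest ligand values, 47.2 and 41.4 CPM, were the TRV130 libraries of code A, the code whose Control was highest. DHRS3, an enzyme that reduces retinaldehyde and is a known target of retinoic acid, was at 190, 160 and 152 CPM in Control and at 115 to 158 CPM (median 128) with ligand. Its mean differences were -0.51, -0.34 and -0.28 in codes A, B and C. LMO1, a LIM-only transcription cofactor known in neuroblastoma, was at 64.9, 24.9 and 32.6 CPM in Control and at 18.6 to 47 CPM with ligand. ITGAE, the integrin αE subunit, was at 20.9, 12.9 and 21.5 CPM in Control and at 9.1 to 19.2 CPM with ligand. For both the ranges overlapped across codes but not within them. ENSG00000280071, an unnamed protein-coding gene of the short arm of chromosome 21, differed most in code C (-1.05), against -0.50 in code A and -0.47 in code B.

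For 1 gene of each direction the promoter is shown, taken as the first of its 10 that the RefSeq table holds, so that the promoter composition given further on can be read from letters. The 250 bases before the start are printed 5′ to 3′ on the gene's strand (plus for both, GRCh38.p14), with GC boxes (GGGCGG on either strand) in capitals. TNFRSF19 (higher) lies at chr13:23570162-23570411, DRG2 (lower) at chr17:18087698-18087947.
TNFRSF19: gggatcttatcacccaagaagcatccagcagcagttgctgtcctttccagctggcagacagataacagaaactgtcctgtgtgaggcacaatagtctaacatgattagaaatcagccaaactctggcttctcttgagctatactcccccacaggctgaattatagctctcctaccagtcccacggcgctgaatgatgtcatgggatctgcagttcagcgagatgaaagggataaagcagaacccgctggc
DRG2: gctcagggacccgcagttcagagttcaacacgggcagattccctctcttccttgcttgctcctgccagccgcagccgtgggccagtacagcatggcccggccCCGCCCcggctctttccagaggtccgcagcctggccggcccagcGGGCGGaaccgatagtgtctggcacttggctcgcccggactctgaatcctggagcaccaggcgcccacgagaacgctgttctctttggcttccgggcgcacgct

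The 6 genes that fell with any ligand were all expressed weakly. MYH16, a myosin heavy chain pseudogene, fell by 1.93 on the log2 scale (SE 0.29, adjusted p = 0.0311 in edgeR). It was at 5.15, 3.72 and 0.432 CPM in Control and at 0.175 to 1.67 CPM (median 0.878) with ligand, and lay below its Control in all 15 libraries. The noncoding genes ENSG00000248787 and ENSG00000281383 fell by 1.60 and by 3.55 and were one-sided too. MYO1F, an unconventional myosin, fell by 2.09 and TTYH1, a membrane protein of the tweety family, fell by 1.38 (adjusted p = 0.0347). ENSG00000280800 fell by 4.06, with 1 ligand library above the count minimum, so that it passed the filter through Control. These last 3 were not one-sided: 3 of the 4 code C libraries exceeded their Control for TTYH1, and 1 library did for each of the other two. TTYH1 was at 6.54, 8.54 and 0.432 CPM in Control and at 0.279 to 3.75 CPM with ligand. ENSG00000281383 and ENSG00000280800 lie on the short arm of chromosome 21 and held 145 counts each in Control 1, so reads of near-identical copies may be shared between them. Without Control 1, none of the 6 was called in edgeR, their adjusted p lying between 0.227 and 0.847, and MYO1F went to -1.22, ENSG00000281383 to -1.81 and ENSG00000280800 to -1.82. In that fit 1 gene was called lower and 0 higher. The next one-sided lower genes by p were ENSG00000278999, NIBAN3, TEX14, ACTN3, ENSG00000266998, ENSG00000270066 and SCARNA2, with log2 fold changes of -2.73 to -1.24 and adjusted p of 0.0503 to 0.0701, so that none passed. ENSG00000278999 passed the filter on low counts through Control, with 1 ligand library above the minimum, so its fold change is a description only. ACTN3, the fast-muscle actinin, was at 5.24, 1.02 and 0.346 CPM in Control and went from -2.62 to -1.26 without Control 1. SCARNA2 lies within ENSG00000270066, and the 2 cannot be told apart.

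Of the genes in the study's title, GARIN4 alone was one-sided. It had 9, 25 and 13 counts in Control 1, 2 and 3 and 0 to 12 with ligand, and its log2 fold change was -3.25 (SE 0.66, adjusted p = 0.0729 in edgeR). It was -3.12 without Control 1. GARIN4 passed the filter on low counts through Control, with 1 ligand library above the minimum, so its fold change is a description only. The same holds for RASAL1 and TRIM56, each with 1 such ligand library. The antisense gene ENSG00000235862 covers 88.3% of its exon, and 16 of 18 libraries held equal counts for both, so the strand of these reads cannot be told apart. RASAL1, a Ras GTPase-activating protein, had 55, 12 and 1 counts in Control and 0 to 15 with ligand, and 12 of 15 libraries lay below. TRIM56, a ubiquitin ligase of antiviral signalling, had 103, 16 and 0 counts in Control and 0 to 24 with ligand. CACNA1F, a calcium channel subunit best known in the retina, had 119, 4 and 0 counts in Control and 0 to 5 with ligand, and did not pass the filter on low counts. For RASAL1, TRIM56 and CACNA1F the high value was that of Control 1, the library with the most reads in otherwise silent genes. The log2 fold change of RASAL1 went from -2.79 to -1.28 without it, and that of TRIM56 from -2.93 to -1.22.

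The opioid receptors were not one-sided. OPRM1, the µ receptor, was at 5.78, 19.3 and 4.93 CPM in Control and at 5.37 to 20.9 CPM (median 12.2) with ligand. Every ligand library of codes A and C exceeded their Control, and in code B 2 of 5 did. OPRD1, the δ receptor, was at 67.1, 185 and 43.6 CPM in Control and at 50.6 to 165 CPM (median 75.5) with ligand, lower in all of code B and higher in all of code C. OPRL1, the nociceptin receptor, was at 13.6, 15.9 and 17.6 CPM in Control and at 12.5 to 20.9 CPM with ligand. OPRK1, the κ receptor, had 0 to 7 counts in any library and was not tested. None of the 4 genes of the opioid receptor and peptide list that were tested was one-sided.

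Early response genes, which neurons transcribe within minutes of a stimulus, had 0 one-sided members among 34 tested, and 8 lay lower and 3 higher at an unadjusted p of 0.05 in edgeR. Over all genes tested, the shares beside which this and the later list counts stand were 3.69% one-sided higher and 2.79% one-sided lower. At that p they were 15.5% higher and 16.2% lower. Their median log2 fold change was -0.18. FOS was at 169, 408 and 465 CPM in Control and at 139 to 350 CPM (median 203) with ligand. All ligand libraries of codes B and C lay below their Control, and in code A 3 of 6 did. EGR1 lay above Control in all 6 code A libraries (mean difference 0.88) and below it in 3 of 5 code B and 3 of 4 code C libraries. NR4A1 was at 39.8, 77.8 and 24.3 CPM in Control and at 23.9 to 52.3 CPM with ligand. It lay below Control in 5 of 6 code A and all 5 code B libraries, but above it in 3 of 4 of code C. The mean differences were -0.205, -0.98 and 0.152 in codes A, B and C. Without Control 2, the Control of code B, its log2 fold change was -0.035. For FOS and NR4A1 the adjusted p was 0.119 and 0.115 in edgeR. Of the MAP kinase feedback genes, DUSP14, a dual-specificity phosphatase, was the 1 one-sided member of 20, on the lower side. The list as a whole lay the other way, with 15 of 20 above 0 and a median of 0.17. At an unadjusted p of 0.05 in edgeR, 7 of its members lay higher and 1 lower.

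Genes that carry the receptors' signal were mixed. Of 38 genes of G protein signalling, 4 were one-sided higher (10.5%) and 0 lower, and the list's median was 0.06. The 4 were the γ subunits GNG12 and GNG7, RGS17, which speeds GTP hydrolysis by Gi class subunits, and GRK3, a kinase that phosphorylates active receptors. Their log2 fold changes were 0.42, 0.20, 0.28 and 0.40, and 0.21, 0.14, 0.22 and 0.21 without Control 1. At an unadjusted p of 0.05 in edgeR, 7 of the 38 members lay higher and 8 lower, beside 15.5% and 16.2% of all genes tested. Of 34 genes of cAMP and protein kinase A, ADCY7, an adenylyl cyclase, was one-sided higher: it was at 14.7 to 23.9 CPM in Control and at 17.5 to 31.3 CPM (median 25.6) with ligand. BRD7 on the other strand covers 41.6% of the exons of ADCY7, so reads of the 2 genes cannot be told apart there. In that list 14 lay higher and 1 lower at an unadjusted p of 0.05, and the median was 0.22. None of the genes of these 2 lists passed the adjusted threshold.

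Calcium handling genes on the one-sided higher list were pumps more than channels. ATP2A2, the calcium pump of the endoplasmic reticulum, and the plasma membrane pumps ATP2B1, ATP2B2 and ATP2B4 lay above Control in all 15 libraries, as did CAMK2D, a calmodulin-dependent kinase subunit. These were 5 of the 37 tested (13.5%), with 0 lower, while the list's median was 0.08. ATP2A2 was at 103 to 180 CPM in Control and at 128 to 243 CPM (median 206) with ligand, and differed by 0.87, 0.32 and 0.34 in codes A, B and C. SCN9A was the 1 one-sided sodium channel gene of 13, and 0 of 28 potassium channel genes were. Over all genes tested, 3.69% were one-sided higher and 2.79% lower.

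Lists of neuronal genes differed from one another. Of 46 axon guidance and adhesion genes, 7 were one-sided higher (15.2%): CNTN1, ITGA6, ITGA1, the repellent cue SEMA3C, the netrin receptors UNC5C and UNC5D, and the ephrin EFNB2. EFNA1 was lower in all 15. The list's median was 0.26, and 18 members lay higher and 1 lower at an unadjusted p of 0.05. Of 44 synaptic vesicle and release genes, 5 were one-sided higher (11.4%): the vesicle GTPases RAB3B and RAB3C, the vesicle protein SV2C, and the active zone scaffolds RIMS1 and ERC1. RAB3C was at 12.3 to 23.3 CPM in Control and at 17.7 to 30.3 CPM (median 24.6) with ligand. Of 35 neuronal cytoskeleton genes, 5 were one-sided higher (14.3%), among them NCAM1 (log2 fold change 0.33), the microtubule-binding DCX (0.51) and MAPT (0.31), and the splicing regulator RBFOX2 (0.53). Without Control 1 these went to 0.26, 0.31, 0.15 and 0.30. The median of that list was 0.08, and 14 of its 35 genes lay below 0. Of 15 granins and neuropeptides, the cargo of dense-core vesicles, 0 were one-sided and 10 lay below 0, with a median of -0.21. Of 33 genes of noradrenergic identity, SLC6A2, the noradrenaline transporter, and the nicotinic receptor subunits CHRNA3 and CHRNA7 were higher and TFAP2A was lower. Of 24 long neuronal genes, ANK2, NBEA and PTPRD were one-sided higher (12.5%).

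Of 23 genes of retinoic acid handling, 4 were one-sided lower (17.4%) and 1 higher. The 4 were DHRS3, the cytosolic retinoic acid-binding proteins CRABP1 and CRABP2, and the nuclear receptor RXRB. CRABP1 was at 58.4, 16.5 and 34.3 CPM in Control and at 12.9 to 37.4 CPM (median 24.5) with ligand, with mean differences of -1.06, -0.25 and -0.32 in codes A, B and C. Without Control 1 its log2 fold change went from -0.58 to -0.29. CRABP2 was at 139, 98.4 and 141 CPM in Control and at 59.5 to 137 CPM with ligand. NTRK2, the BDNF receptor that retinoic acid induces in this line, lay on the other side, at 164 to 336 CPM in Control and 202 to 446 CPM (median 346) with ligand. The list's median was 0.06, so its members did not lean one way as a whole. The reads of CRABP1 may include those of the antisense gene ENSG00000279694, which covers 47.2% of its exons.

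In lipid synthesis, 5 of 35 genes were one-sided higher (14.3%) and 0 lower: SREBF2, the transcription factor of sterol synthesis, and ACACA, SCD, ELOVL6 and FADS1, which make, lengthen and desaturate fatty acids. ELOVL6 had a log2 fold change of 0.29 and FADS1 one of 0.33, which went to 0.20 and 0.19 without Control 1. SCD was at 241 to 417 CPM in Control and at 243 to 698 CPM (median 476) with ligand. Of 487 zinc finger genes, 19 were one-sided higher (3.9%) and 10 lower (2.05%), near the shares of all genes tested. Cell cycle genes had 0 one-sided members of 47, beside 3.69% higher and 2.79% lower over all genes tested.

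The mRNAs of the translation and respiration machinery lay lower, but not in every library. All 82 ribosomal protein genes tested had log2 fold changes below 0, from -0.72 to -0.25 with a median of -0.48, and 74 had an unadjusted p under 0.05, though 0 were one-sided and 0 passed the adjusted threshold. By code, the mean of the list was -1.01 in A, -0.07 in B and -0.26 in C, and 2 of the 5 code B libraries lay above 0. Of 75 nuclear-encoded respiratory chain genes, 70 lay below 0 and 50 had an unadjusted p under 0.05, with a median of -0.41. The mean of this list was -0.77 in code A, -0.03 in B and -0.25 in C. Its 4 one-sided lower members were NDUFS8, NDUFA3, NDUFV3 and ATP5F1D (log2 fold changes -0.58, -0.62, -0.38 and -0.56). Without Control 1 these were -0.29, -0.33, -0.32 and -0.32. Of the 13 mitochondrially encoded mRNAs, 10 lay below 0, with 0 one-sided members and 1 lower at an unadjusted p of 0.05 in edgeR. Their mean was -0.27 in code A and -0.72 in B but 0.17 in C, and 2 of 6 code A libraries lay above 0. The epithelial markers (11 tested) lay below 0 without exception, with a median of -0.65, and so did the 6 immune markers (-0.62, CD79A one-sided lower) and the 3 endothelial ones (-0.59). The differences were largest in code A, the code of Control 1. The epithelial mean was -1.38 in A, -0.37 in B and -0.10 in C. The immune mean was -1.10, -0.46 and -0.055, and the endothelial mean -0.92, -0.60 and -0.32.

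**Figure D2:**
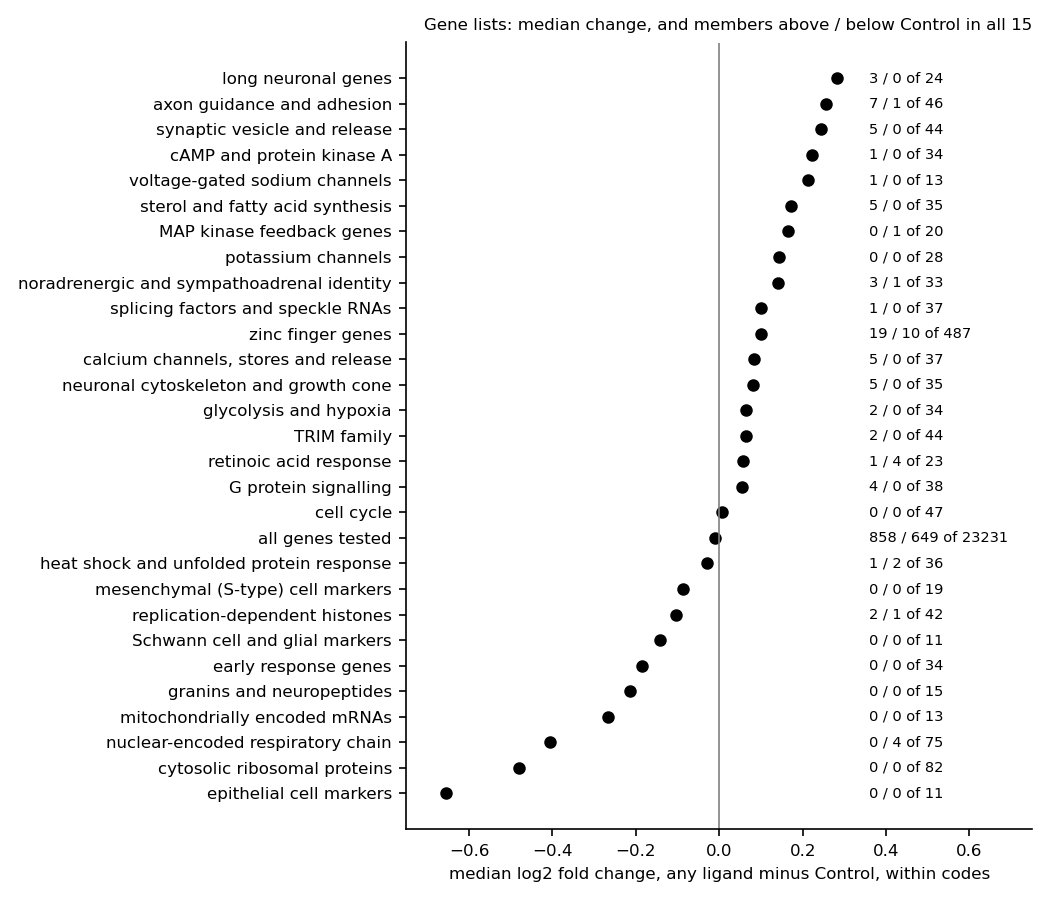
Median log2 fold change of any ligand against Control within codes (x axis) for 28 gene lists of 10 or more tested members (y axis). The numbers at the right are the members above and below their Control in all 15 libraries, of those tested, and all genes tested are shown at -0.01 with 858 and 649 of 23231.

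The shared difference was larger in code A than in the other codes. Every code A difference is taken from Control 1, so its size cannot be told apart from the values of that library. Over the 858 higher genes the median difference of a library from its Control was 0.90 to 1.06 in the code A libraries of morphine, metamorphine, β-endorphin and naloxone. It was 0.44 and 0.54 in the 2 TRV130 libraries of code A, 0.21 to 0.32 in code B and 0.16 to 0.36 in code C. Over the 649 lower genes the corresponding values were -0.98 to -0.85, -0.38 and -0.45, -0.39 to -0.22 and -0.39 to -0.20. The median over all genes stayed between -0.04 and 0.04 in each library. In a fit with a code-by-ligand term, added after the data were seen, the ligand difference itself varied between codes for 477 genes (2.05%) in edgeR, 32 of them one-sided (2.12% of 1507).

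**Figure D3:**
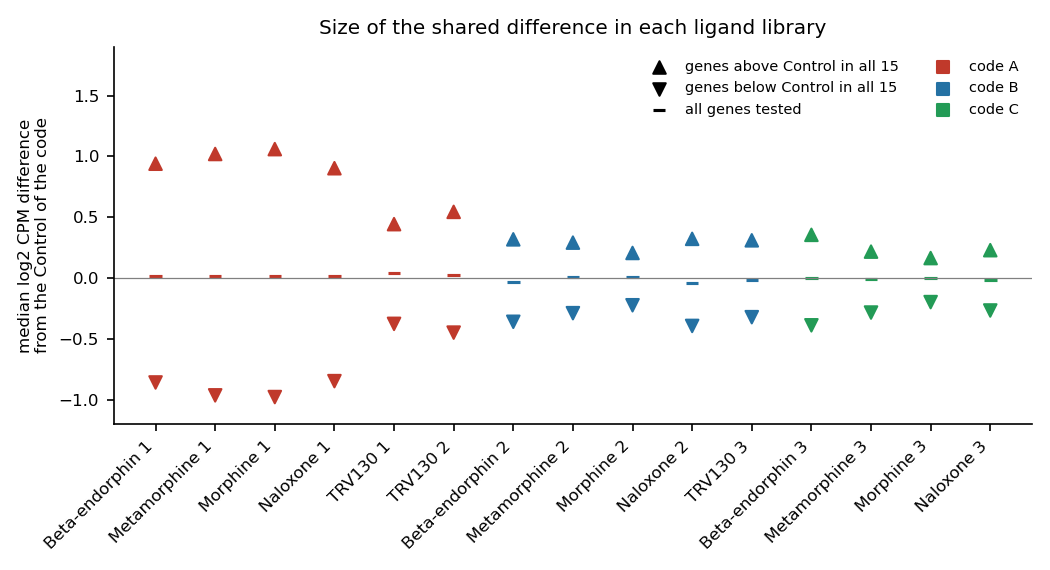
Median log2 CPM difference from the Control of the same code (y axis) in each of the 15 ligand libraries (x axis), for the genes above Control in all 15, those below, and all genes tested. Colours are codes. The code A libraries other than TRV130 reach 0.90 to 1.06, and codes B and C stay at or under 0.36.

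By ligand, the median log2 fold change of the 858 higher genes was 0.47 for morphine, 0.50 for metamorphine, 0.23 for TRV130, 0.53 for β-endorphin and 0.47 for naloxone. For the 649 lower genes it was -0.50, -0.55, -0.26, -0.59 and -0.54. All come from the same fit with the same 3 Controls, though TRV130 had no library in code C. These medians are over genes chosen because all 15 libraries, those of each ligand included, lay on the same side, so they describe what the selection used. Contrasts without a Control term asked whether ligands differ among themselves. The edgeR fits behind them held all 18 libraries, so the Controls still bore on the spread and the code terms. Across the 5 ligands edgeR called 0 genes (0%), with 410 (1.77% of genes tested) at an unadjusted p of 0.05. DESeq2, fitted for this question without the Control libraries, called 7, with 2089 at an unadjusted p of 0.05. Between naloxone and the other 4 ligands edgeR again called 0 (0%), with 234 (1.01%) at an unadjusted p of 0.05 and DESeq2 calling 1. The smallest adjusted p was 1 in both edgeR tests. Nearest to a call among the ligands were SLX1A, RGPD5, SMIM11, TNFRSF12A and KCNQ3, and for naloxone MROH2A, XAGE1B, OR10AH1P, FZD10-AS1 and CNIH3-AS1. Most of the naloxone genes lay near 0 counts. MROH2A, OR10AH1P and FZD10-AS1 each had 2 ligand libraries above the count minimum, and CNIH3-AS1 had 4. Their ligand medians were 0.0338, 0, 0.167 and 0.206 CPM. SLX1A, RGPD5 and XAGE1B have near-identical copies, so their counts are uncertain. TNFRSF12A, the receptor of TWEAK, was at 13.8 to 19.2 CPM in Control and at 9.73 to 19.7 CPM with ligand, below Control in 13 of 15 libraries. A miss of the threshold does not show that the ligands act alike.

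The one-sided genes shared features that the selection did not use. Among protein-coding genes the median exon length was 7556 bases for the higher and 3146 for the lower set, beside 4871 for all tested. The median GC content of the exons was 44.2% and 57.9%, beside 49.3%, and the median length of the gene 85742.5 and 15773 bases, beside 32759. Protein-coding genes of at least 1 CPM were also parted into 5 equal classes. In the class of shortest exons, 0.949% were one-sided higher and 6.17% lower, and in the class of longest exons 9.94% and 0.986%. Along GC content, 6.06% were higher and 0.219% lower in the lowest class, and 0.475% and 6.8% in the highest. With genes parted into 3 classes of length and 3 of GC, 8.76% of the short genes of high GC were lower and 0.521% higher, and of the long genes of low GC 0.191% were lower and 11.4% higher. Chromosome 19, which is rich in GC, had 94 lower and 18 higher genes of 1742, whereas chromosome 5 had 16 and 76 of 1060.

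The dependence on length was not equal across libraries. The median difference of the class of longest exons exceeded that of the shortest by 1.00 to 1.14 in the code A libraries other than TRV130, by 0.45 and 0.47 in the TRV130 libraries of that code, by 0.12 to 0.42 in code C, and by -0.14 to 0.27 in code B. After a smooth of each library on exon length and GC was removed, a correction chosen after the pattern was seen, 632 genes were one-sided higher and 624 lower, of which 389 and 330 were on the same side before. By that correction the median of the axon guidance list went from 0.26 to 0.13, of the synaptic vesicle list from 0.24 to 0.12, of the long neuronal genes from 0.28 to 0.11, of the cAMP list from 0.22 to 0.09 and of the zinc finger genes from 0.10 to 0.00. The neuronal cytoskeleton list went the other way, from 0.08 to 0.14 with 28 in place of 21 of 35 genes above 0, and so did noradrenergic identity, from 0.14 to 0.20. The ribosomal proteins kept -0.46 and the respiratory chain -0.39. SPOCK1, BVES and CNTN1 had corrected log2 fold changes of 0.30, 0.37 and 0.54, and DHRS3 and DRG2 of -0.26 and -0.48.

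**Figure D4:**
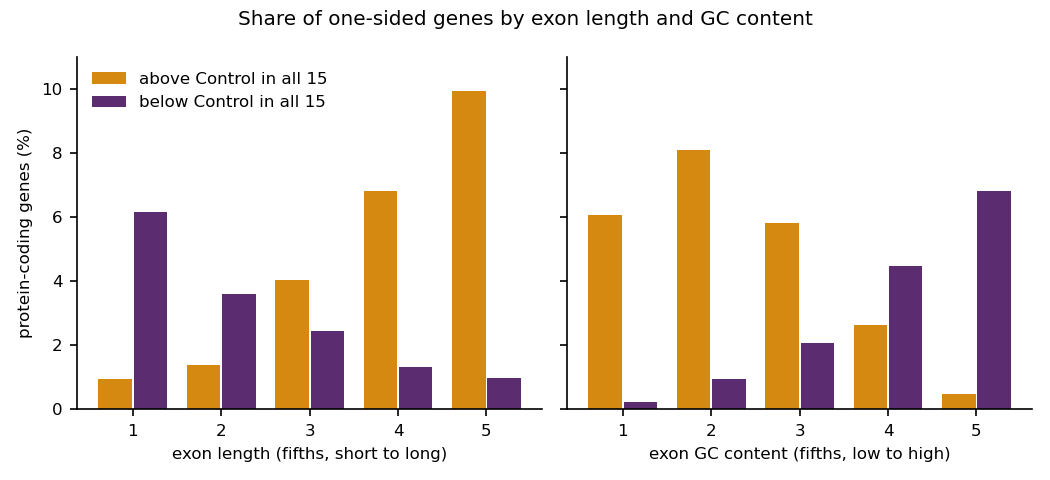
Share of protein-coding genes of at least 1 CPM (y axis, percent) that lay above or below their own Control in all 15 ligand libraries, in 5 equal classes of exon length (left) and of exon GC content (right). The higher share goes from 0.949% to 9.94% with exon length, and the lower share from 0.219% to 6.8% with GC content.

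Promoters did not show the contrast seen in the transcripts. In windows of 300 bases around the start (RefSeq, GRCh38.p14), found for 513 of 636 higher, 354 of 457 lower and 11683 of 14969 tested protein-coding genes, the median GC content was 66%, 66% and 65%. The GC box GGGCGG stood on either strand in 67.4% of higher, 71.2% of lower and 68.5% of all promoters. The cAMP response element TGACGTCA was found in 3.9%, 1.69% and 3.16%, the AP-1 site TGACTCA in 3.7%, 3.39% and 3.03%, and the TATA box TATAAA in 6.82%, 4.24% and 6.01%. The cAMP response element and the AP-1 site share the start TGAC and the end TCA. The printed promoter of TNFRSF19 holds 0 GC boxes and that of DRG2 holds 2. A match is a description of letters only.

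The edge of the one-sided set was thin. The 3 higher genes that came nearest to their Control, SYT16, PYGO1 and ZC3H14, had a closest library within 0.0002 log2 units of it. Just outside were OTUD4, HEG1 and RNF111, each with 14 of 15 libraries above and the exception within 0.0006. On the lower side LONP1, GTPBP6 and GPS2 were just inside and UBE2F-SCLY, CIRBP and PCBP3 just outside. If every library had to differ by at least 0.25 from its Control, 39 higher and 45 lower genes remained.

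Single libraries weighed on the fit. Leaving out Control 3 raised the calls from 0 higher and 6 lower to 1472 and 1233 in edgeR, leaving out the TRV130 library labelled replicate 1 raised them to 1222 and 1629, and leaving out Control 2 gave 29 and 37. Leaving out Morphine 3 gave 2 and 22. Without Control 1 the genes at an unadjusted p of 0.05 dropped to 388 higher and 830 lower. With scaling redone on the 17 libraries, 1119 genes lay above and 1202 below Control in all libraries of codes B and C. With the scaling of all 18 these were 1233 and 1100. The filter on low counts was not redone and stayed that of all 18 libraries. When the 3 libraries with most reads in otherwise silent genes were left out (Control 1, Naloxone 1 and Naloxone 2), 0 genes were called in either direction, with 318 and 656 at an unadjusted p of 0.05. The naming rules gave 94 one-sided genes from the smallest p and from the lists. Of these, 49 had a log2 fold change more than 1.5 times smaller without Control 1. Beside those given above, the 49 include STXBP4 (0.57 to 0.32), PIGL (-0.49 to -0.22), CHRNA7 (0.36 to 0.11), RAB3C (0.51 to 0.28), PTPRD (0.97 to 0.55) and ATP2A2 (0.51 to 0.33). That 0 of the 94 changed sign follows from their selection, because all their libraries of codes B and C already lay on that side. Where a Control is left out, the ligand libraries of its code no longer bear on the contrast.

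**Figure D5:**
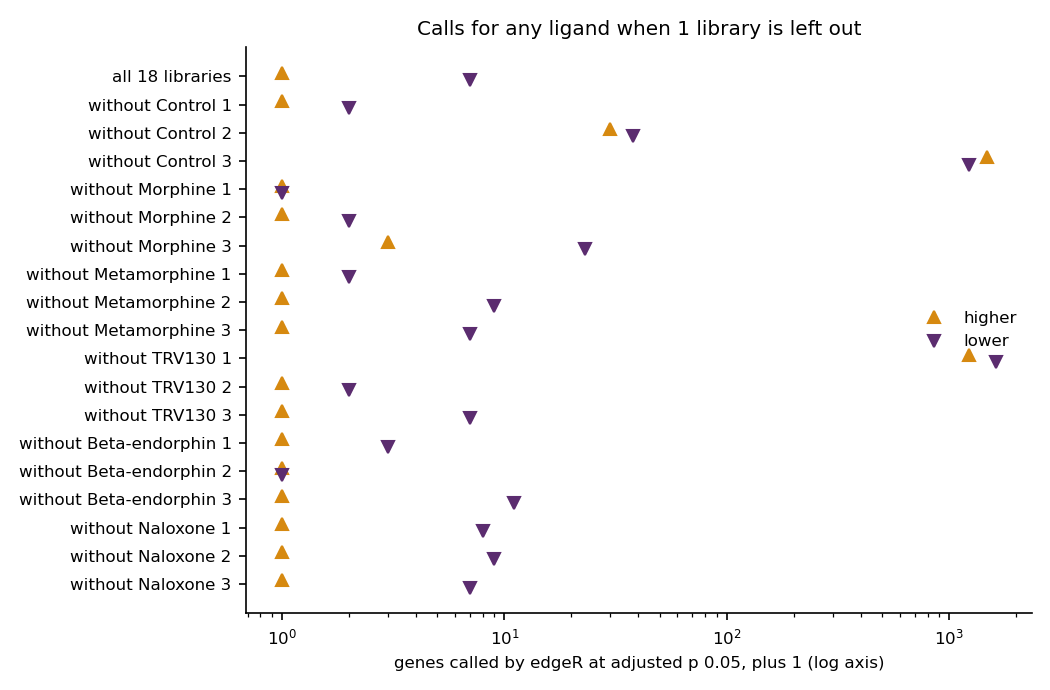
Number of genes called higher or lower with any ligand by edgeR at an adjusted p of 0.05, plus 1, on a log axis (x axis), with all 18 libraries and with each left out in turn (y axis). The counts run from 0 to 1472 higher and from 0 to 1629 lower.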

How the data were processed

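Paired-end libraries of total RNA were made without strand information and sequenced on an Illumina instrument, per the labels' protocols. The deposited table holds whole-number counts per Ensembl gene, not normalized, for 58735 genes, of which 46594 had a count. The submitters' processing notes name FastQC, HISAT2, featureCounts, DESeq2 and the build GRCh38/hg38. For versions, settings and annotation the sources used here give nothing. Gene names, positions, exon lengths and GC content came from GENCODE 29 (GRCh38), to which all IDs matched.

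Genes were kept by edgeR's filterByExpr (minimum count 10), scaled by TMM and fitted with edgeR 4.0.16 (R 4.3.3, glmQLFit robust) with library code and any ligand as terms, with Benjamini-Hochberg adjustment over 23231 genes. The SE is the fold change over the root of F. One-sided genes were counted on log2 CPM with a prior count of 2. The contrasts among ligands used code and 6 groups. DESeq2 1.42.0 and limma 3.58.1 served as alternatives. Other alternatives were scaling, filters, design, samples and each library left out. 0 library pairs had identical values.

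Named genes were the 10 one-sided genes with the smallest p in each direction, over all genes and over protein-coding genes of at least 10 CPM, up to 4 one-sided members of each of 33 lists, the title, opioid receptor and early response genes, and those nearest the margin or a call among ligands. The result of 1 list is not reported here. Members and lists were chosen with earlier results of these data known.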

Additional observations from a re-analysis of the deposited data

Results flagged for a closer look

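Several gene lists, and 1 gene, lay on opposite sides of Control in different codes, all ligand libraries of a code being on the same side. The differences between codes were not tested for these, and values are mean log2 differences from the Control of the code over its ligand libraries. The opioid receptor and ligand precursor genes stood at 0.161 in code A, -0.189 in code B and 0.176 in code C, and OPRD1 at -0.587 in code B and 0.433 in code C. The G protein signalling genes stood at 0.1 in code B and -0.096 in code C. The MAP kinase feedback genes stood at 0.356 in code A, 0.067 in code B and -0.071 in code C. Cell cycle genes were at 0.175 in code B and -0.161 in code C, and the TRIM family at -0.048 in code B and 0.089 in code C. Granins and neuropeptides were at -0.432 in code A and 0.155 in code B. Splicing factors and speckle RNAs were at 0.252 in code A and -0.181 in code B. Zinc finger genes were at 0.256 in code A, -0.039 in code B and 0.042 in code C. For ENSG00000280800 the code-by-ligand term in edgeR had an adjusted p of 0.0407. That gene passed the filter on low counts through Control, with 1 ligand library above the minimum, so the value is a description only. Each code has 1 Control, so a code's value cannot be told apart from that of its Control library.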

How the results depend on the processing

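Calls for any ligand (0 higher, 6 lower) moved to 14 lower with RLE size factors, and to 1 lower with a minimum mean of 1 CPM or with 6 groups. They moved to 2 lower without the code or without naloxone, and to 1215 higher and 3084 lower without a filter on low counts. Without the TRV130 libraries they were 2173 and 2869, with DESeq2 630 and 946, with voom 1 and 15, without Control 1, Naloxone 1 and Naloxone 2 0 lower, and with length and GC removed (added after the data were seen) 14 lower. The cause was not tested. With single libraries left out, calls ran from 0 to 1472 higher and from 0 to 1629 lower, and one-sided genes from 770 to 3357 higher and from 653 to 2648 lower, the highest where a Control and its code were left out. One-sided genes were 1338 higher without a filter, 39 and 45 with a margin of 0.25, 3361 and 2541 in codes A and B, 2247 and 2648 in codes A and C, and 1233 and 1100 in codes B and C. Among ligands, no filter gave 452 calls and DESeq2 7. For naloxone against the others they gave 23 and 1.

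With the replicate block (the label's replicate number in place of the code), 0 genes were called higher and 0 lower, and 190 and 195 were one-sided. The numbers 1, 2 and 3 match codes A, B and C except in TRV130, whose replicates 2 and 3 carry codes A and B. The block thus moves only these TRV130 libraries to another Control. The numbers share no stated source. Libraries with the same number correlated over 0.1 in 29 of 45 pairs (median 0.335). Those with the same code, mostly the same pairs, did so in 36 of 45 (median 0.429), and those with another code in 23 of 90 (median -0.187).

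Of the named genes, these changed sign. EGR1 went to -0.07 without the code, -0.34 without Control 1, Naloxone 1 and Naloxone 2, and -0.16 with voom. SLX1A went to -0.11 without TRV130, -0.027 without those 3 libraries and -0.15 with voom. RGPD5 went to -0.10 without TRV130 and -0.054 with voom, OR10AH1P to 1.55 without the 3 libraries and 0.19 with voom, and OPRD1 to 0.00 with voom. KCNQ3 went to -0.005 without the 3 libraries and -0.048 with length and GC removed, and GTPBP6 to 0.056 with the latter. With a library left out, EGR1 ran from -0.29 to 0.29, SLX1A from -0.063 to 0.12, OPRD1 from -0.25 to 0.27, MROH2A from -3.49 to 1.14, OR10AH1P from -4.79 to 3.47, CNIH3-AS1 from -0.40 to 0.26, SMIM11 from -1.81 to 1.22 and XAGE1B from -2.09 to 1.97.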
